A study of Mus musculus with 144 samples.

Results

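The cytosolic ribosomal protein genes encode the proteins of the ribosome that works in the cytoplasm. They were taken from the deposited expression table as protein-coding genes whose names start with Rpl or Rps and a digit, together with Rplp0, Rplp1, Rplp2 and Rpsa. Names starting with Rps6k, which are kinases, and names containing "-ps", which are pseudogenes, were left out. The rule gave 87 of the 55364 genes, 52 with large subunit names and 35 with small subunit names. It also takes in a protein that binds Rps19 (Rps19bp1), a pair of retrocopies (Rps23rg1 and Rps27rt) and tissue-restricted paralogs, and it misses ribosomal proteins with other names, such as Fau and Rack1.

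Expression was measured in single retinal microglia, sorted as green cells from Iba1-EGFP mice, a reporter strain in which cells expressing the macrophage gene Iba1 are green. One group came from mice given PBS, 10 to 14 weeks old, one from mice given 1 mg/kg ripasudil, 14 weeks old, and one from mice given 10 mg/kg ripasudil, 12 weeks old. Ripasudil inhibits the kinases ROCK1 and ROCK2, which act on the actin cytoskeleton. The 48 cells of a group were spread evenly over 3 plates. Cells were kept if 1000 or more genes reached an FPKM of 1, which left 46 of PBS, 47 of 1 mg/kg and 47 of 10 mg/kg, and such genes are called detected. The labels named no animal and did not say whether these eyes had been injured. Each group was therefore 1 sample, no test across groups was made, and dose, age and the block of wells a group took on a plate cannot be told apart.

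The microglial marker Csf1r was at an FPKM of 1 or more in 100% of the 140 cells, Cx3cr1 in 95.7% and Tmem119 in 88.6%, while the transcription factor Sall1 was found in 23.6%. Reads assigned to genes ranged from 30204 to 4668730 per cell. The median number of detected genes was 3143 in PBS cells, 2418 at 1 mg/kg and 2264 at 10 mg/kg, so the groups differed in how much of the transcriptome was seen. At least 3 of 10 rod photoreceptor markers were present in 6 PBS cells, 7 cells of 1 mg/kg and 12 of 10 mg/kg, and the summed FPKM of the rod list ranged over 0 to 346 in PBS cells, 0 to 4661 at 1 mg/kg and 0 to 15739 at 10 mg/kg. Of its defining genes, Pde6a was in 0% of PBS and 1 mg/kg cells and Nrl in 0% of PBS cells.

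Each ribosome joins a small subunit, which reads the messenger RNA, to a large subunit, which forms the peptide bonds. Cells make the ribosomal proteins in matched amounts, and in mammals part of this control acts on translation. The messengers of most of them begin with a C and a run of pyrimidines, the 5′ terminal oligopyrimidine or TOP motif. Through this start the growth kinase mTOR and the RNA-binding protein Larp1 set how strongly these messengers are translated, a step that RNA levels do not show. Their genes lie scattered over the genome and have left many processed pseudogenes, copies made by reverse transcription.

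The start of the transcript was examined in the RefSeq promoter table of GRCm38.p6, in which 67 of the 87 symbols were found. The windows below run from 10 bases before the annotated start to 20 bases from it, 5′ to 3′, and capitals mark a C followed by at least 4 pyrimidines within 5 bases of the start. Rps6, the substrate of the S6 kinases, is shown as the classical example. The others are members whose levels are described below, first those with such a run and then 5 without one.
Rps6, chr4:86857348-86857377, minus strand: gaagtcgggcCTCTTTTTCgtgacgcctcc
Rpl18, chr7:45718061-45718090, plus strand: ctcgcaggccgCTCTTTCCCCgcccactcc
Rps10, chr17:27635225-27635254, minus strand: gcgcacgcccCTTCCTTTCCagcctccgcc
Rpl7a, chr2:26910797-26910826, plus strand: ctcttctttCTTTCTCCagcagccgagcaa
Rpl38, chr11:114668570-114668599, plus strand: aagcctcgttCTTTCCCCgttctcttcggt
Rpl14, chr9:120571507-120571536, plus strand: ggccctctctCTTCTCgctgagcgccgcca
Rpl13, chr8:123102340-123102369, plus strand: tttcgcctgattttgattggcgtttgagat
Rps13, chr7:116334171-116334200, minus strand: caaacgtcggtgagtggcgtcacttcctgt
Rpl24, chr16:55966265-55966294, plus strand: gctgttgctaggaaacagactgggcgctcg
Rpl11, chr4:136053374-136053403, minus strand: ccataaggccacggggccggaagtctccct
Rplp0, chr5:115559457-115559486, plus strand: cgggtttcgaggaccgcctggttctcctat

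A run of this kind lay near the start in 41.8% of the 79 windows of the members and in 18.3% of all 32851 windows of the table. With the C exactly at the annotated start, the shares were 17.7% and 2.51%. An annotated start that is off by some bases hides the run, so a window without it says only that these letters are not near that position. Over the 300 bases of the windows, read on both strands, CCGGAAG (the core bound by ETS factors) was found in 34.2% of the member windows against 8.86% of all, AAGATGGC (the YY1 core) in 10.1% against 2.75%, GGGCGG (the GC box) in 59.5% against 35.7%, and TATAAA in 8.86% against 13.6%. These are counts of letters, which share base composition with neighbouring motifs, and no factor was measured.

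Ribosomal protein transcripts were among the most abundant in these microglia. Over all kept cells, the mean of log2(FPKM + 1), the scale used for levels here, had a median of 5.76 over the 49 large subunit members and 6.52 over the 35 small subunit members that reached an FPKM of 1 in at least 25% of the cells of any group. It was 1.59 over the other genes passing that filter. The median detection over genes was 87.9% for large subunit members, 90.7% for small subunit members and 35.7% of cells for other genes. In all, 4806 genes passed, 84 of them members, and 40 members were detected in at least 90% of the cells. Detection at a fixed FPKM is easier in shallow libraries, where a single read can exceed it.

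The highest mean level belonged to Rps29, a zinc-binding protein of the small subunit head (9.36 ± 2.13, SD over 140 cells). Also near the top were Rplp1 (8.69 ± 2.95) and Rplp0 (8.41 ± 2.91), which build the stalk that recruits elongation factors, and Rpl36 (8.27 ± 3.08). These means differed from each other by less than their spread over cells. Rps29, Rpl4 and Rps19 were among the members detected in each of the 140 cells. Rps19 shares reads with its pseudogenes, as described below, so its detection is uncertain. By reads and not per length, Rpl4 was the leading member in 15 cells, Rpsa in 14, Rplp0 in 13 and Rps3 in 12.

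Rps29 (ENSMUSG00000034892, chr12:69157722-69159186, minus strand) had a lowest, median and highest FPKM of 7.12, 708 and 14634 in PBS cells, 2.0, 694 and 5675 at 1 mg/kg, and 3.67, 888 and 6124 at 10 mg/kg. The gene thus spanned more than 3 orders of magnitude among cells of a group, and the groups overlapped almost completely.

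The low end held the paralogs and the genes that are ribosomal in name only. Among tested members the lowest levels were those of Rps19bp1 (1.26 ± 2.46), Rpl22l1 (1.66 ± 2.37), Rpl7l1 (2.01 ± 2.85) and the retrocopy Rps23rg1 (2.22 ± 1.40). Of the genes for core proteins, Rpl22 (2.82 ± 2.79), Rps15a (3.6 ± 2.62) and Rps20 (3.77 ± 2.78) stood lowest. The deposited gene lengths of Rps15a (6270 bases) and Rps20 (4080 bases) are long for ribosomal protein genes. Rpl3l, a paralog of striated muscle, and Rpl39l, a paralog of the testis, were listed at 0 in all 140 cells. A floor of 3 cells allows detection in up to 2.14% of cells (exact Clopper-Pearson upper end 2.60%), which limits detection and not expression in shallow cells. Rpl10l, also known from the testis, was found in 1 cell, of 1 mg/kg, at an FPKM of 2.50.

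**Figure D1:**
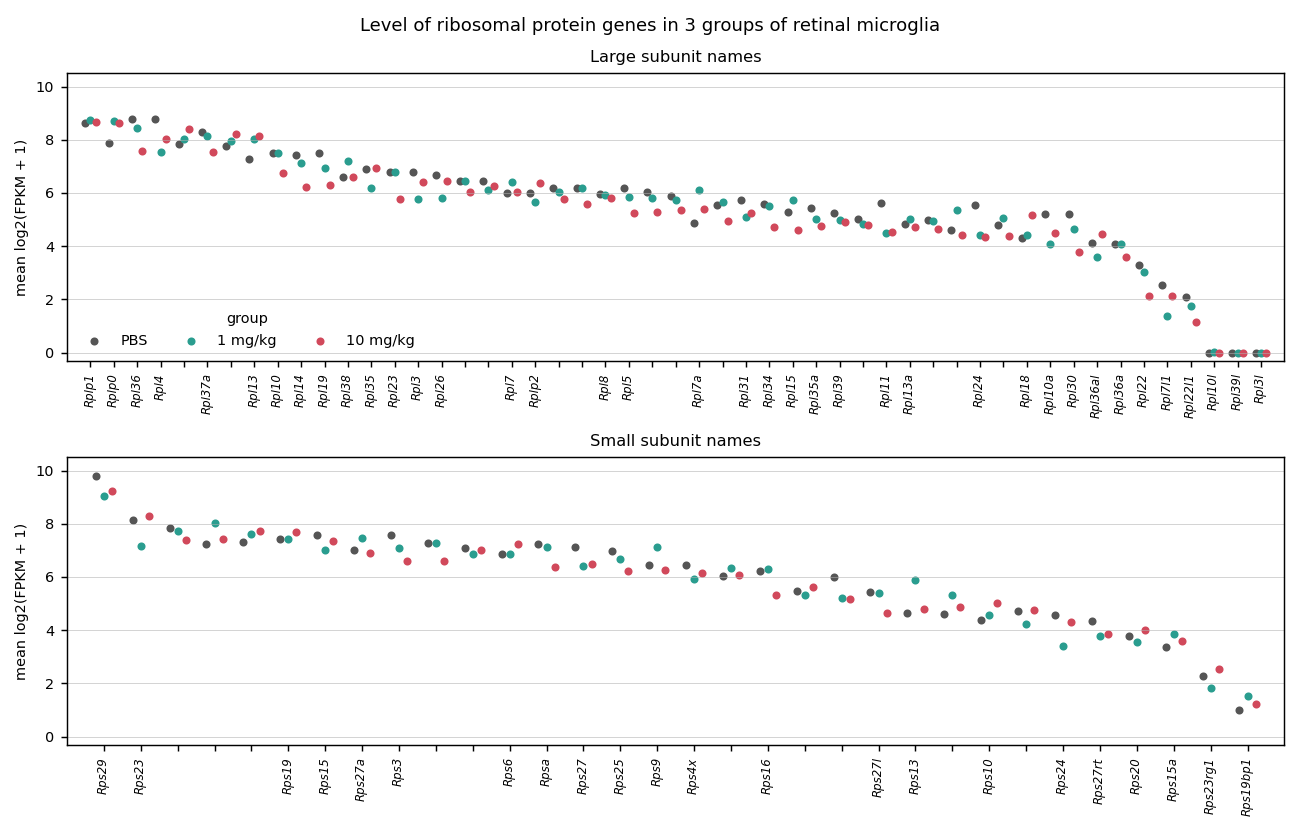
Mean level of 83 of the 87 genes, as mean log2(FPKM + 1) over the kept cells of PBS (46), 1 mg/kg (47) and 10 mg/kg (47), with large subunit names above and small subunit names below, ordered by level, and with names on the members the text describes. Among tested members the mean over all cells lies between 9.36 for Rps29 and 1.26 for Rps19bp1, and 3 members lay at or near 0.

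Length enters this order. The authors' FPKM divides by the summed length of all annotated exons of a gene, with a median of 1776 bases over the tested members. The main transcript, taken as the longest one marked as principal in the annotation, had a median of 882 bases. The ratio of the 2 had a median of 1.98 and reached 6.79 for Rpl35a and 6.05 for Rps19, so such genes are listed at lower FPKM than their messenger would give. Across the 84 tested members, Spearman's correlation of deposited length and mean FPKM was -0.47. The spread of members did not shrink when reads were divided by the main transcript, as the SD of the log2 level was 1.43 in place of 1.40. For some long genes that transcript was nearly as long as the deposited length, as for Rps15a (5179 of 6270 bases) and Rps20 (3706 of 4080 bases). The similar SD therefore does not show how much length contributes to the order.

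Within cells, the share of reads in the 87 genes was variable in each group. It had a lowest, median and highest value of 1.47, 3.58 and 15.1% of assigned reads in PBS cells, 0.235, 3.82 and 10.7% at 1 mg/kg, and 1.14, 4.50 and 14.8% at 10 mg/kg. By plate, from 1 to 3, the median was 3.54, 3.66 and 3.56% among PBS cells, 4.62, 3.53 and 3.42% at 1 mg/kg, and 3.69, 4.53 and 5.46% at 10 mg/kg. The median at 10 mg/kg was thus above that of PBS on each plate, though barely on plate 1, while at 1 mg/kg it was above PBS on plate 1 only. The middle 50% of the cells spanned 3.02 to 5.16% in PBS cells, 2.55 to 7.24% at 1 mg/kg and 3.14 to 6.68% at 10 mg/kg, so the differences between groups were small against the spread over cells. Without cells holding at least 3 rod markers, the medians were 3.56% in PBS cells, 3.82% at 1 mg/kg and 4.24% at 10 mg/kg.

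**Figure D2:**
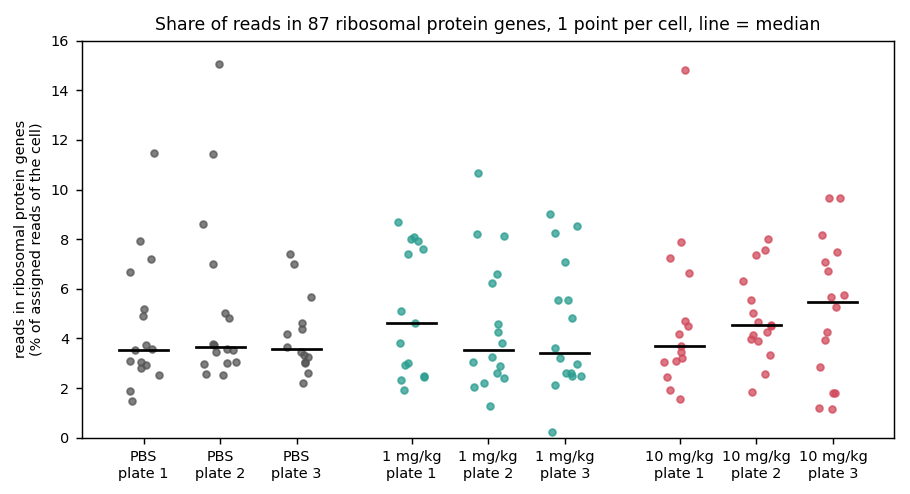
Reads in the 87 genes as a percentage of the assigned reads of a cell, 1 point per kept cell, by group and plate, with the median as a line. The medians lie between 3.42 and 5.46%, single cells between 0.235 and 15.1%, and the groups overlap on each plate.

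Cells with fewer detected genes gave a larger share of their reads to these genes. Spearman's correlation of the share with the number of detected genes was -0.55 in PBS cells, -0.55 at 1 mg/kg and -0.28 at 10 mg/kg, over 46, 47 and 47 cells that each contribute 1 library to both measures. Among cells with 1000 to 2000 detected genes the median share was 6.83% in 8 PBS cells, 6.58% in 19 cells of 1 mg/kg and 5.76% in 21 cells of 10 mg/kg. With 2000 to 4000 genes it was 3.76% in 24 PBS cells, 4.18% in 12 of 1 mg/kg and 3.98% in 19 of 10 mg/kg. With 4000 to 10000 genes it was 3.02% in 14 PBS cells, 2.61% in 16 of 1 mg/kg and 3.91% in 7 of 10 mg/kg. The poorest range, which held 8 PBS cells against 19 and 21 dosed cells, had its highest median in PBS. One cell of 1 mg/kg on plate 3 stood apart, with 7293 detected genes but only 57 of the 87 members and a share of 0.235%, and 3 rod markers.

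Cells with more detected genes also had more of the members, up to 84 of the 87. The number of members detected had a median of 76.5 in PBS cells (53 to 84), 74 at 1 mg/kg (43 to 84) and 74 at 10 mg/kg (35 to 84). With each cell thinned to 300000 reads, a member was counted from 1 read and not from an FPKM of 1. The medians were then 78 over 41 PBS cells, 73 over 46 cells of 1 mg/kg and 72 over 44 cells of 10 mg/kg. In the same order of groups, 5, 1 and 3 shallower cells were left out. Without thinning, Spearman's correlation of the members detected with the number of detected genes was 0.88 in PBS cells, 0.83 at 1 mg/kg and 0.89 at 10 mg/kg.

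**Figure D3:**
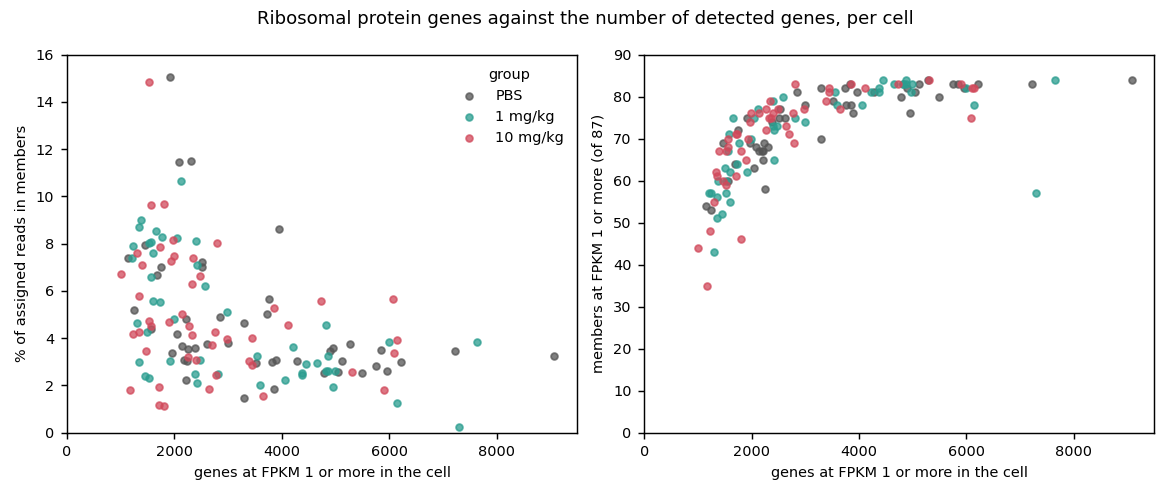
Each point is a kept cell of PBS, 1 mg/kg or 10 mg/kg. Left, the percentage of assigned reads in the 87 genes, which is highest in cells with few detected genes; right, the number of the 87 genes at an FPKM of 1 or more, which reaches 84 and is 57 in the cell of 1 mg/kg with 7293 detected genes.

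The summed FPKM of the large and of the small subunit members moved together over cells. Sums over many genes can correlate strongly where single pairs do so weakly. Sums of other genes were not compared, so whether this is particular to ribosomal proteins was not tested. Spearman's correlation of the large with the small subunit sum was 0.79 in PBS cells, 0.92 at 1 mg/kg and 0.89 at 10 mg/kg. The log2 ratio of large to small had medians of 0.43 in PBS cells, 0.38 at 1 mg/kg and 0.37 at 10 mg/kg. Single pairs of members were only weakly related, with a median Spearman correlation over pairs of 0.14 in PBS cells, 0.13 at 1 mg/kg and 0.17 at 10 mg/kg. For 299 other tested genes with a level at or above the 25th percentile of the members, the medians were 0.11 in PBS, 0.049 at 1 mg/kg and 0.084 at 10 mg/kg. Depth and detection are shared by all genes of a cell, and these values are given as a description.

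In the comparison of 10 mg/kg with PBS, ribosomal protein genes were on balance lower in mean log2 level, as were most genes, and more so in the large subunit. The median difference over the 84 tested members was -0.33, with 57 lower (67.9%) and 27 higher, against -0.43 over all 4806 genes, of which 81.4% were lower. By plate the members' medians were -0.49, -0.25 and -0.38. Large subunit members had a median of -0.41 and small subunit members of -0.13, although as a log2 ratio of group means of FPKM the subunits had 0.083 and 0.072. This direction turned when cells with few detected genes were left out. Among cells that had 2000 or more detected genes the members' median was 0.28 and that of all genes -0.14, after adjustment for detected genes the values were 0.084 and -0.048, and as a log2 ratio of group means of FPKM they were 0.080 and -0.054.

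A member was counted as different where its pooled difference was at least 0.5 on the log2 scale with 1 sign on all 3 plates. At 10 mg/kg against PBS, 3 members were higher by this measure (3.57% of 84) and 18 were lower (21.4%), against 1.04% and 32.7% of all genes. The share of members with 1 sign on all plates was 33.3%, against 44.5% of all genes. Members had higher levels than the other tested genes and a larger median SD over cells, 2.96 against 2.33. A fixed cut of 0.5 is therefore not like for like between members and all genes, here and below. No member differed by more than the SD over cells, the largest difference being that of Rpl30 at 0.481 of its SD.

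The 3 higher members were Rpl18, Rpl13 and Rps10. Rpl18, a large subunit protein mutated in some people with Diamond-Blackfan anaemia, had a lowest, median and highest FPKM of 0, 74.7 and 905 in 10 mg/kg cells, against 0, 57.8 and 1134 in PBS cells. Its mean log2 level was 5.19 ± 2.85 at 10 mg/kg and 4.31 ± 2.98 in PBS cells. These differed by 0.87, and by 0.19, 1.39 and 1.07 on plates 1 to 3. Rpl18 was detected in 41 of 47 cells (87.2%, exact Clopper-Pearson 95% interval 74.3 to 95.2) at 10 mg/kg and in 33 of 46 (71.7%, 56.5 to 84.0) in PBS.

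Rpl13, which lies near the exit of the peptide tunnel, had a lowest, median and highest FPKM of 2.10, 293 and 4849 in 10 mg/kg cells, against 2.38, 257 and 938 in PBS cells. Its mean levels were 8.13 ± 2.05 at 10 mg/kg and 7.28 ± 2.08 in PBS cells, which differed by 0.85 in all and by 1.6, 0.20 and 0.81 on plates 1 to 3, and by 0.47 without plate 1. The highest values differed more than the medians, and Rpl13 was detected in all cells of both groups. Rps10, a small subunit protein that is ubiquitinated when ribosomes collide, had values of 0, 65.7 and 636 in 10 mg/kg cells, against 0, 30.5 and 1699 in PBS cells. Its mean levels were 5.03 ± 2.80 at 10 mg/kg and 4.4 ± 2.68 in PBS cells, and the difference of 0.63 came mostly from plate 2, with 0.25, 1.49 and 0.09 by plate and 0.19 without plate 2. Without cells holding at least 3 rod markers, called cells holding rod markers from here on, Rpl13 differed by 0.44 and Rps10 by 0.95. Cells with fewer rod markers stayed in. The exons of Rpl13 overlap Snord68 and Mir7079, those of Rps10 overlap Gm15420, and Rps10 shares reads with pseudogenes, so their values are uncertain. All 3 differences were above 0 in each of the 12 settings tried. These members were chosen for 1 sign on all plates, and the settings reuse the same cells. Keeping the sign when a plate is left out or plates are averaged was therefore largely fixed by the choice. The same holds for the signs kept by other members below.

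Of the 18 members counted as lower at 10 mg/kg, 13 were among the 49 tested large subunit members (26.5%) and 5 among the 35 of the small subunit (14.3%), both below the 32.7% of all genes. Rpl30 (ENSMUSG00000058600, chr15:34440505-34443640, minus strand) was lowest, with a lowest, median and highest FPKM of 0, 15.3 and 447 in 10 mg/kg cells, against 0, 63.2 and 1218 in PBS cells. Its mean levels were 3.79 ± 2.95 at 10 mg/kg and 5.20 ± 2.66 in PBS cells, which differed by -1.42 in all and by -2.15, -0.75 and -1.39 on plates 1 to 3. It was detected in 33 of 47 cells (70.2%, 55.1 to 82.7) at 10 mg/kg and in 41 of 46 (89.1%, 76.4 to 96.4) in PBS. More cells without the transcript and a lower middle thus went together, although the ranges overlapped.

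Rpl24, whose protein forms a bridge to the small subunit, had values of 0, 37.7 and 1367 in 10 mg/kg cells, against 0, 90.1 and 2785 in PBS cells. The difference of mean levels was -1.20, with nearly the same value on each plate, -1.16, -1.14 and -1.28. Rpl19 differed by -1.21, with -2.09, -1.17 and -0.29 by plate and -0.82 without plate 1, and its median FPKM was 210.3 in 10 mg/kg cells and 406 in PBS cells. Rpl14 differed by -1.22, while its median FPKM was 238 in 10 mg/kg cells and 264 in PBS cells. Rpl14 was detected in 42 of 47 cells at 10 mg/kg and in all 46 PBS cells. How much of the difference lay in the cells without the transcript was not computed. Rpl24 overlaps Gm28037, Rpl30 overlaps Gm24523 and D730044K07Rik, and only 6.1% of the Rpl24 values were whole reads, so these values are uncertain as well.

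Rpl22 and its paralog Rpl22l1 were both lower at 10 mg/kg than in PBS. Rpl22, an RNA-binding protein of the large subunit that mice need for normal T cell development, differed by -1.17, with -1.30, -0.94 and -1.26 by plate. Rpl22l1, which is repressed by Rpl22 in mice, differed by -0.94, with -0.97, -0.84 and -1.13. The genes were detected in 46.8% and 23.4% of the cells at 10 mg/kg and in 58.7% and 45.7% of the PBS cells. For Rpl22 the difference was -0.048 in cells that had 2000 or more detected genes, and for Rpl22l1 it was -0.78 there. Lower members also included Rpl11 (-1.12), Rps3 (-1.0), Rpl23 (-1.0), Rpl5 (-0.92), Rps16 (-0.90), Rpl34 (-0.86), Rpl37a (-0.75), Rps25 (-0.74), Rpl10a (-0.71) and Rpl15 (-0.67). Several of these rested on 1 plate: the differences were -0.43 for Rpl34 and -0.53 for Rpl5 without plate 3, -0.47 for Rps16 and -0.38 for Rpl15 without plate 1, and -0.18 for Rpl10a without plate 2. Of the 18, 8 kept their sign in each setting tried, namely Rpl14, Rpl19, Rpl22, Rpl22l1, Rpl24, Rpl30, Rpl34 and Rps16.

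**Figure D4:**
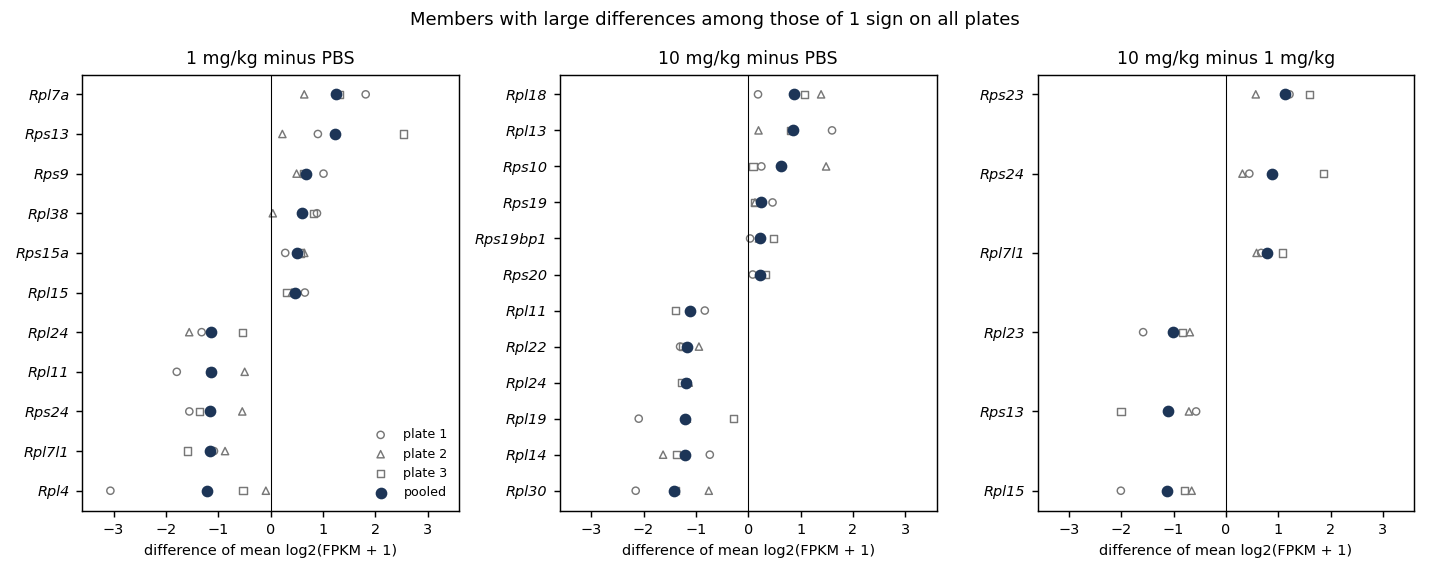
Differences of mean log2(FPKM + 1) for members with large values among those with 1 sign on all plates: up to 6 in each direction for each dose against PBS and up to 4 in each direction for 10 against 1 mg/kg. Filled points are pooled values and open symbols the 3 plates. Rpl24 at 10 mg/kg against PBS has close plate values (-1.16, -1.14 and -1.28), while Rpl4 at 1 mg/kg against PBS rests on plate 1 (-3.06, -0.09 and -0.53).

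At 1 mg/kg the members followed the median of all genes. The median difference from PBS was -0.13 over the 84 members, with 53 lower (63.1%) and 31 higher, against -0.18 over all genes with 64.7% lower, and by plate the members' medians were -0.19, -0.089 and -0.19. Large and small subunit members had medians of -0.17 and -0.11. Here too the sign depended on how the cells were counted, with members' medians of 0.083 in cells that had 2000 or more detected genes, 0.156 after adjustment for detected genes, 0.079 as a log2 ratio of group means of FPKM and 0.022 with a pseudocount of 10. By the measure above, 5 members were higher (5.95%) and 15 lower (17.9%), against 3.87% and 17.5% of all genes. The comparisons of the doses with PBS share the PBS cells.

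Rpl7a and Rps13 had the highest positive differences at 1 mg/kg. Rpl7a, a large subunit protein, had a lowest, median and highest FPKM of 0.159, 161 and 2525 in 1 mg/kg cells, against 0, 81.3 and 724 in PBS cells. Mean levels were 6.11 ± 3.26 at 1 mg/kg and 4.85 ± 3.29 in PBS cells, which differed by 1.26 in all and by 1.82, 0.64 and 1.31 on plates 1 to 3. Rps13, a small subunit protein that contacts the large subunit, had values of 0, 108 and 1593 in 1 mg/kg cells, against 0, 63.4 and 227 in PBS cells. Its difference of 1.24 was uneven over plates, with 0.90, 0.22 and 2.54, and 0.60 without plate 3. For both genes the median and the highest value were higher at 1 mg/kg, and the lower ends of the ranges coincided near 0. Rpl7a and Rps13 host small nucleolar RNAs in their gene models and have 14 and 7 named pseudogenes, so their values are uncertain.

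The other higher members were Rps9 (0.68), which helps to form the entry of the messenger channel, Rpl38 (0.60), which mice need for translation of a subset of Hox messengers, and Rps15a (0.50). Rps9, 60.3% of whose values were whole reads, had a lowest, median and highest FPKM of 0, 283 and 1918 in 1 mg/kg cells, against 0.98, 148 and 2244 in PBS cells, with plate differences of 1.01, 0.50 and 0.63. Without cells holding rod markers it differed by 0.36. Rpl38 differed by 0.04 on plate 2, by 0.39 without plate 1, by 0.90 without plate 2 and by 0.33 without cells holding rod markers, whereas its median FPKM was 234 in 1 mg/kg cells and 242 in PBS cells.

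Rpl4 had the largest negative difference at 1 mg/kg. This protein, which lines the peptide tunnel, had values of 1.57, 363 and 2549 in 1 mg/kg cells, against 4.87, 523 and 7293 in PBS cells. Its mean level differed by -1.22, but plate 1 carried this, with -3.06, -0.09 and -0.53 by plate and -0.33 without plate 1. Rpl7l1 (-1.16), Rps24 (-1.16), Rpl11 (-1.14), Rpl24 (-1.14), Rpl10a (-1.11), Rpl3 of the peptidyl transferase centre (-1.03), Rps23 of the decoding centre (-0.99), Rps29 (-0.77), Rpl31 (-0.64), Rpl30 (-0.57), Rps15 (-0.57) and Rps4x (-0.51) were also lower. For Rps23 the difference was -0.30 without plate 1 and -0.25 without cells holding rod markers. Without plate 3 the differences were -0.28 for Rpl31, -0.26 for Rps15 and -0.25 for Rps4x. Without cells holding rod markers they were -0.30 for Rpl31, -0.44 for Rps29 and -0.77 for Rps4x. Of the 15 lower members, 10 kept their sign in each setting, and all 5 of the higher ones did, with the limit from their choice given above.

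Between the doses, ribosomal protein genes had a median difference of -0.24 at 10 mg/kg relative to 1 mg/kg, equal to that of all genes (-0.24), with 51 lower (60.7%) and 33 higher, while 72.0% of all genes were lower. The large subunit had a median of -0.29 and the small subunit of -0.046. The members' median was 0.091 in cells that had 2000 or more detected genes and 0.036 as a log2 ratio of group means of FPKM. Higher at 10 mg/kg by the measure above were 10 members (11.9%), against 2.77% of all genes, and lower were 13 (15.5%), against 18.6%. These shares too set members beside genes of mostly lower level and smaller spread.

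Rps23 (ENSMUSG00000049517, chr13:90922958-90924950, plus strand) was highest in this comparison, with a lowest, median and highest FPKM of 0.629, 505 and 3782 in 10 mg/kg cells, against 0.293, 261 and 2808 in 1 mg/kg cells. The difference of mean levels was 1.12, with 1.21, 0.57 and 1.59 by plate. Its retrocopy Rps23rg1 differed by 0.70. Only 2.34% of the Rps23rg1 values above 0 were whole reads and its exons overlap Rps23-ps2, so this value is uncertain. Whether it is separate from that of Rps23 was not tested. Higher members also included Rps24 (0.88), Rpl7l1 (0.78), Rpl18 (0.76), Rpl35 (0.75), Rplp2 (0.70), Rpl3 (0.67) and Rpl26 (0.64). Without plate 3 the difference was 0.45 for Rpl35 and 0.38 for Rps24, without plate 1 it was 0.35 for Rplp2, and without plate 2 it was 0.33 for Rpl26 and 1.14 for Rpl18. Without cells holding rod markers it was 1.13 for Rpl3 and 0.45 for Rpl18, and in cells that had 2000 or more detected genes Rpl18 differed by -0.27. Of the 10, Rps23, Rps24, Rpl7l1 and Rpl3 were among the members lower at 1 mg/kg than in PBS. Both comparisons use the cells of 1 mg/kg, so a low value there enters both.

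Members lower at 10 mg/kg than at 1 mg/kg included Rpl15 (-1.13), Rps13 (-1.11), Rpl23 (-1.02), Rpl22 (-0.92), Rpl14 (-0.90), Rps9 (-0.88), Rpl36 (-0.87), Rpl30 (-0.84), Rpl34 (-0.78), Rpsa (-0.77), Rpl22l1 (-0.63) and Rpl38 (-0.60). Plate 3 mattered for Rps13, Rpl34 and Rpl14, at -0.64, -0.46 and -0.55 without it, plate 1 for Rpl15 and Rpsa, at -0.72 and -0.34, and plate 2 for Rpl22, at -0.49. Without cells holding rod markers Rps9 differed by -0.18, Rpl15 by -0.75 and Rpl36 by -1.31. Of the 13, 7 kept their sign in each setting. In cells that had 2000 or more detected genes Rpl14, Rpl23, Rpl30, Rpl38 and Rpsa were above 0, at 0.61, 0.34, 0.091, 0.0050 and 0.18.

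**Figure D5:**
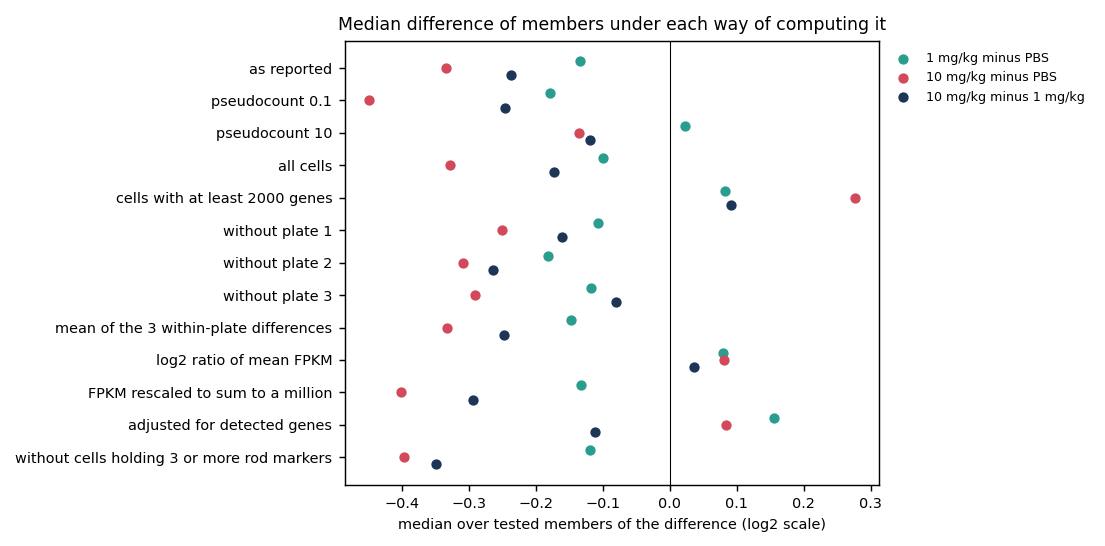
Median over the 84 tested members of the difference for 1 mg/kg minus PBS, 10 mg/kg minus PBS and 10 minus 1 mg/kg, as reported and under 12 other ways of computing it. For 10 mg/kg minus PBS the median is -0.33 as reported and 0.28 in cells that had 2000 or more detected genes, so no direction of the set as a whole held in every setting.

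Some members were listed for roles outside the ribosome or in disease. Rpl5 and Rpl11, which bind 5S RNA and, when free, the p53 regulator Mdm2, had differences of -0.92 and -1.12 at 10 mg/kg against PBS, but these values were 0.78 and 0.44 in cells that had 2000 or more detected genes. Rps19, mutated in Diamond-Blackfan anaemia, had the smallest SD over cells of the 40 members detected in at least 90% of them. Its levels were 7.68 ± 1.71 at 10 mg/kg and 7.43 ± 1.52 in PBS cells, which differed by 0.25. Only 2.78% of the Rps19 values above 0 were whole reads, so its level and spread are uncertain. Rps6 differed by 0.35 from PBS at 10 mg/kg and by -0.03 at 1 mg/kg, with plate values of 1.61, -0.77 and 0.09 and of 1.37, -0.09 and -1.49. Rps27a, made as a fusion with ubiquitin, differed by -0.13 and 0.46, and Rpl13a, which in human cells can leave the ribosome to silence inflammatory messengers, by -0.11 and 0.18. Rpsa, also known as the laminin receptor, differed by -0.88 at 10 mg/kg, where plate 1 had -2.45 and the value without it was -0.15. Rplp0, often used as a reference gene, differed by 0.75 at 10 mg/kg and by 0.81 at 1 mg/kg, with signs that differed between plates (0.95, -0.70 and 2.07, and 2.09, -0.50 and 1.0).

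Paralog pairs differed in how far apart their levels stood. Rps27 averaged 7.14 in PBS cells, 6.42 at 1 mg/kg and 6.48 at 10 mg/kg. In the same order of groups, Rps27l, a p53 target in human cells, had 5.45, 5.39 and 4.66. The retrocopy Rps27rt had 4.34, 3.79 and 3.86, but only 4.39% of its values above 0 were whole reads, so these are uncertain. With plates pooled, Rpl36a and Rpl36al stood close in PBS cells and further apart at 10 mg/kg. Levels were 4.07, 4.07 and 3.6 for Rpl36a on the X chromosome and 4.13, 3.61 and 4.45 for its retrogene Rpl36al on chromosome 12. The differences of 10 mg/kg from PBS changed sign on plate 3. By plate they were -1.04, -0.89 and 0.42 for Rpl36a and 1.32, 1.71 and -2.08 for Rpl36al. Rpl7 averaged 6.02, 6.4 and 6.02 and Rpl7l1, a factor of immature ribosomes, 2.53, 1.36 and 2.14. Rpl3, Rpl10 and Rpl39 were found in 129, 138 and 112 of the 140 cells, while Rpl3l, Rpl10l and Rpl39l were at or near 0.

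Members with a pyrimidine run at the start and members without one both had medians below 0. The 31 tested members with a run had a median difference of -0.16 at 10 mg/kg against PBS and -0.054 at 1 mg/kg against PBS, and the 33 without had -0.47 and -0.17. In cells that had 2000 or more detected genes the medians at 10 mg/kg were 0.29 with and 0.19 without a run. The members with a run had the lower median level, 5.20 against 6.14, and no test of the difference was made.

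Other parts of the translation machinery were taken from lists, whose genes count as measured here where they reached an FPKM of 1 in at least 10% of the kept cells. Most of the list medians turned sign with the setting. The 30 measured initiation factors had a median of -0.61 at 10 mg/kg against PBS. Of them, 27 were lower (90%, against 81.4% of all genes, which passed the stricter filter of 25%). The median was below 0 in each of the 12 settings (-0.87 to -0.047), as was that of all genes in the settings given above. In cells that had 2000 or more detected genes it was -0.047, nearer to 0 than that of all genes. After adjustment for detected genes it was -0.069, and as a log2 ratio of group means of FPKM -0.24, both further below 0 than all genes. Eif3c (-1.47) and Eif3h (-1.45), subunits of the scaffold that binds the small subunit, were the lowest of the initiation factors. At 1 mg/kg their median was -0.29, and Eif4a1 (-1.20, with -0.40, -0.92 and -2.41 by plate) and Eif2s2 (-1.13) were lowest. The 7 elongation factors had medians of 0.065 at 10 mg/kg and 0.17 at 1 mg/kg, and -0.17 and -0.048 without cells holding rod markers. Among them Eef1a1, which carries aminoacyl-tRNA to the ribosome, was detected in 100% of cells and was higher on each plate, by 0.48 at 10 mg/kg and 0.91 at 1 mg/kg. Eef2, the translocase, differed by -0.75 at 10 mg/kg, with -0.22, 0.12 and -2.24 by plate, and by -1.19 at 1 mg/kg, with -1.14, -0.11 and -2.43. Eef1g differed by -0.54 at 10 mg/kg, with -0.27, 0.68 and -2.04, so that plate 3 carried the values of both genes at 10 mg/kg.

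Ribosome biogenesis genes (36 measured) had medians of -0.23 at 10 mg/kg and -0.12 at 1 mg/kg against PBS. Pes1, needed for large subunit assembly, was lowest at 10 mg/kg (-1.35, with -0.96, -2.49 and -0.53 by plate), followed by Bysl (-1.25, with -2.25, -0.87 and -0.58). At 1 mg/kg the nucleolar protein Ncl (-1.01) and Pes1 (-1.0) were lowest, and each rested mainly on 1 plate, with -0.61, -0.06 and -2.54 for Ncl and -0.26, -2.43 and -0.24 for Pes1. The 13 genes of the mTOR and TOP control list had medians of -0.26 and -0.068. Larp1 differed by -1.27 and -0.94, most on plate 3 (-2.68 and -1.79), and was detected in 17.9% of the cells, and Mtor itself was detected in too few cells. The 7 nascent-chain factors had medians of -0.33 and -0.16, with Srp9 (-1.38) lowest at 10 mg/kg and Naca (-0.77) at 1 mg/kg. Plate 2 had the largest values of both, with -1.08, -2.71 and -0.19 for Srp9 and 0.09, -1.93 and -0.42 for Naca. The 74 measured of 78 mitochondrial ribosomal proteins, which serve a separate ribosome, had medians of -0.47 and -0.24, and 69 of the 74 (93.2%) were lower at 10 mg/kg, against 81.4% of all genes. Their median at 10 mg/kg was below 0 in each setting, from -0.76 to -0.13. That of all genes at 10 mg/kg was also below 0 in the settings given for it above. Fau and Rack1 averaged 7.39 and 5.04 in 10 mg/kg cells and 7.63 and 5.31 in PBS cells and differed by -0.24 and -0.27 at 10 mg/kg, with signs that differed between plates. These medians stand beside -0.43 and -0.18 for all genes tested, which passed a stricter filter than the lists did.

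Many reads of these genes could not be placed with certainty. A value was taken as whole where it came within 0.01 of a whole number of reads. Of the 11345 values above 0 of the members, 21.7% were whole, against 50.2% for the other tested genes and 3.62% for 319 named ribosomal protein pseudogenes. Among values of at most 1 read over all genes, 14.5% lay at 1/2, 3.78% at 1/3 and 3.15% at 1/4 of a read, as when a read is shared between features. Named pseudogenes held 38.8% of the joint reads of Rps19 and its copies, 31.3% for Rpl36a, 26.7% for Rps6, 25.7% for Rps10 and 25.6% for Rpl15. Rpl7l1 (74.7% whole), Rpl8 (71.4%), Rps3 (62.5%) and Rps9 (60.3%) were among the members least touched by sharing. Exons of 38 members overlap another gene, and 30 members hold a small nucleolar RNA gene inside their gene model.

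Reads in the named pseudogenes amounted to a median of 7.75% of those in the members in PBS cells, 7.43% at 1 mg/kg and 8.06% at 10 mg/kg. In a cell of 10 mg/kg with 30204 reads they reached 249%, mostly in Rps19-ps6, a pseudogene of Rps19 at chr12:110898114-110898551. At 300000 reads or more, Rps19-ps6 held at most 1.15% of the reads in PBS cells, 0.852% at 1 mg/kg and 0.315% at 10 mg/kg. The members lie on 19 chromosomes, 14 of them on chromosome 7 and 4 on the X chromosome.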

How the data were processed

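The authors deposited FPKM values, which are read numbers scaled to gene length and to the assigned reads of a cell, for 144 cells. The submitters' processing notes name Trim Galore 0.4.4 and cutadapt 1.16, Trimmomatic 0.36, featureCounts 1.6.1 and the aligner STAR 2.7.2b, with the build GRCm38.p6 (mm10), but the sources used here give no settings and no word on strand. Per the labels' protocols, cDNA of each sorted cell was amplified and tagmented with the Nextera XT kit, and no molecular identifiers were named. Intervals on numbers of cells cover counting error only and leave out variation between animals.

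Of the 144 cells, 140 passed the filter on detected genes. FPKM times length gave shares of reads, and the commonest positive value in a cell was taken as 1 read, which gave 30204 to 4668730 reads per cell. As 53.5% of the values above 0 were whole reads, no count model was used. Levels are means of log2(FPKM + 1), which understate changes of low genes, and differences are between group means, pooled and by plate. With 1 sample per group, no p-value was computed. The calculations were tested on simulated data. They ran in Python 3.11.15 (numpy 2.4.6 and scipy 1.17.1, tables in pandas 2.3.3, plots in matplotlib 3.10.9).

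Members, lists, thresholds and settings were chosen with earlier results of these data known. Members were named singly if among the 4 highest or lowest levels of a subunit, the 6 largest differences in each direction for a dose against PBS (4 between doses) with 1 sign on all plates, a listed paralog pair, or a role outside the ribosome. The 2 members of each related list with the largest differences were added, and members counted as different were listed. Some members are not reported here. The mitochondrial list was added after the data were seen. Alternatives changed the pseudocount, filters, cells, plates, scaling and members. Sequences are from RefSeq. Rps14 and Rpl17 are on chromosome 18, and none of theirs is shown. There were 0 columns of other samples.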

Additional observations from a re-analysis of the deposited data

How the results depend on the processing

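Each group was 1 sample and no test was made, so these values describe how the numbers move. No paired analysis was possible because the labels give no animals to pair and replicate numbers only name cells. Groups were compared within plates as descriptions, and the mean of the within-plate differences gave medians of -0.33, -0.15 and -0.25 for 10 mg/kg against PBS, 1 mg/kg against PBS and 10 against 1 mg/kg. The median difference of members between 10 mg/kg and PBS was -0.33 as reported, -0.14 with a pseudocount of 10, 0.28 in cells with at least 2000 genes, 0.080 as the log2 ratio of mean FPKM and 0.084 adjusted for detected genes. For 1 mg/kg against PBS it was -0.13 as reported, 0.022, 0.083, 0.079 and 0.156 under these settings in the same order, and -0.22 over the 18 members with at least 30% whole-read values, an alternative chosen after seeing the data. All genes had 0.12, 0.056 and 0.057 under the last 3 of the shared settings. Between the doses the members' median was -0.24 as reported, -0.12 with a pseudocount of 10, 0.091 in cells with at least 2000 genes, 0.036 as the ratio, -0.11 adjusted and -0.35 without cells holding rod markers, and -0.26 to -0.081 leaving out 1 plate.

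Counts of members past the difference moved more. At 10 mg/kg against PBS, higher members numbered 3 as reported, 9 in cells with at least 2000 genes, 13 by the ratio, 12 adjusted, 1 without members overlapping another gene, 0 among those with at least 30% whole reads and 6 to 9 leaving out a plate. Lower ones numbered 18, and 3, 4, 11, 9, 5 and 25 to 29 under these settings. At 1 mg/kg against PBS, higher members numbered 5, and 8 with all cells, 12, 13, 8, 2 without cells holding rod markers, 3, 2 and 7 to 11. Lower ones numbered 15, and 5 in cells with at least 2000 genes, 8 by the ratio, 8 without overlapping members, 4 with whole reads and 20 to 26 leaving out a plate. Between the doses, higher members numbered 10, and 16 in cells with at least 2000 genes, 5 without overlapping members, 2 with whole reads and 11 to 17. Lower ones numbered 13, and 4 in cells with at least 2000 genes, 5 by the ratio, 8, 4 and 19 to 24. Fewer plates make 1 sign on all plates easier to meet, and smaller sets of members give smaller counts. The matching shares of all genes under these settings are not given here. As reported, 1.04% of all genes were higher and 32.7% lower at 10 mg/kg against PBS. The shares were 3.87% and 17.5% at 1 mg/kg against PBS, and 2.77% and 18.6% between the doses. The median of all genes also moved between settings, so these shifts cannot be read as particular to the members.

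The large minus small subunit median was -0.28 at 10 mg/kg against PBS and 0.011 by the ratio. At 1 mg/kg against PBS it was -0.058, 0.083 with all cells, 0.032 in cells with at least 2000 genes, -0.16 with whole reads and -0.19 to -0.055 leaving out a plate. Between the doses it was -0.24, 0.0073 in cells with at least 2000 genes and 0.165 with whole reads. The share of reads was 3.49% in PBS cells and 2.91% at 1 mg/kg in cells with at least 2000 genes. Over the 49 members without overlap it was 1.71% in PBS cells, 1.84% at 1 mg/kg and 2.21% at 10 mg/kg, and over the 18 with whole reads 0.684%, 0.735% and 0.775%.

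In cells with at least 2000 genes Rpl11 differed by 0.44 at 10 mg/kg and 0.23 at 1 mg/kg against PBS, Rps24 by 0.025 at 1 mg/kg against PBS, and Rpl23 by 0.34 between the doses. Rps19bp1 differed by 0.23 at 10 mg/kg against PBS and by -0.16 with all cells. The causes of these shifts were not tested. Of the summary values under alternatives, 135 stayed close to the reported value, 55 moved and 14 turned sign. Depth limits the low members, since many are missed in shallow cells.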
